A study of Homo sapiens with 4 samples.

Results

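Eukaryotic translation initiation factors bring the small ribosomal subunit, the initiator tRNA and the capped end of a messenger RNA together at the start codon. The genes described here are the protein-coding genes of GENCODE 29 whose symbol is EIF followed by a digit from 1 to 6. That rule uses no expression value, but it was chosen with earlier results of these data known. GENCODE 29 holds 56 such genes, and 54 of them have a row among the 28274 genes of the deposited table; the remaining 2 were not analysed here. Messenger RNA was measured by RNA sequencing in a human cell line named J-gammal in the labels, in 2 control libraries and 2 libraries with FYB1 knockdown. FYB1 encodes an adaptor protein of T cell receptor and integrin signalling. The controls are described as having no treatment, with the genotype given as none, and their titles carry the letters NC. The knockdown libraries have titles with sh-FYB1 and the genotype FYB1 knockdown. All 4 come from the same line, and the labels name no vector, shRNA sequence, clone or time after knockdown. Whether the 2 libraries of each group are separate cultures is not in the labels, so p-values reflect variation among these libraries alone, and that variation may be technical.

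In outline, eIF2 carries the initiator tRNA as a complex with GTP, and eIF2B reloads eIF2 with GTP after each round. Stress kinases phosphorylate the alpha subunit of eIF2, which turns it into an inhibitor of eIF2B and slows initiation. The large scaffold eIF3 binds the small ribosomal subunit, while eIF4E binds the cap, eIF4A unwinds the leader and eIF4G joins them. The 4E-binding proteins compete with eIF4G for eIF4E until the kinase mTOR phosphorylates them. Growing and activated T cells are known to raise their translation through this last step.

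Values are FPKM, that is, fragments relative to merged exon length in kilobases, scaled by a library total set by the authors. The libraries held 16693113 to 20251864 reads recovered from these values, and the 54 genes took 0.941% to 0.953% of the reads in each library. FYB1 itself measured 17.6 and 20.1 FPKM in control libraries 1 and 2, against 6.18 and 4.53 FPKM under knockdown. FYB1 passed both tests (adjusted p 0.0398 in limma-trend and 0.000419 in limma-voom), but leaving out knockdown library 1 or 2 ended its limma-trend call (adjusted p 0.203 and 0.0555). The labels name no tissue for the line; all 11 T cell marker genes had means of at least 1 FPKM, 8 with lower and 3 with higher knockdown means (median log2 fold change -0.20). CD3D, with the largest difference of them, measured 478 and 419 FPKM in the controls, against 224 and 299 FPKM under knockdown. TRAC, a gene of the T cell receptor itself, measured 399.6 and 373 FPKM in the controls, against 406 and 459 FPKM under knockdown. Of the B cell markers CD79A stood at 21.2 to 24.5 FPKM in the controls and 11.1 to 15.8 FPKM in the knockdown libraries, while MS4A1 and PAX5 were at or below 0.0386 FPKM in all 4. The 6 myeloid markers with a row summed to 0.407 and 0.519 FPKM in the controls, and none reached a mean of 1 FPKM. Of the 6 genes with a row in a list labelled epithelial and stromal, PECAM1 alone reached that mean. EPCAM, COL1A1 and the keratin genes KRT8, KRT18 and KRT19 did not, so PECAM1 alone is no sign of such cells. In bulk RNA, fewer cells of a type and less RNA per cell cannot be told apart. The mitochondrial share of reads was 4.03% to 4.09% for controls and 4.92% to 5.14% under knockdown, and the part of this difference, and of the marker differences, in the results was not tested.

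Levels of the initiation factor messages covered a wide range. The highest means over the 4 libraries were those of EIF1, a factor that scans for the start codon, at 204 FPKM, and EIF4H, a cofactor of the eIF4A helicase, at 202.5 FPKM. Next came EIF5A, the factor that carries the modified amino acid hypusine, at 132 FPKM, EIF3I at 128 FPKM and EIF4B at 113 FPKM. The difference between EIF1 and EIF4H was smaller than the spread between libraries, and the ranges of EIF5A, EIF3I and EIF4B overlapped as well. At the low end 12 genes had a mean under 5 FPKM, and EIF4E3, a cap-binding paralog, at 0.865 FPKM was the only 1 of the 54 below the minimum mean of 1 FPKM set for testing.

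**Figure D1:**
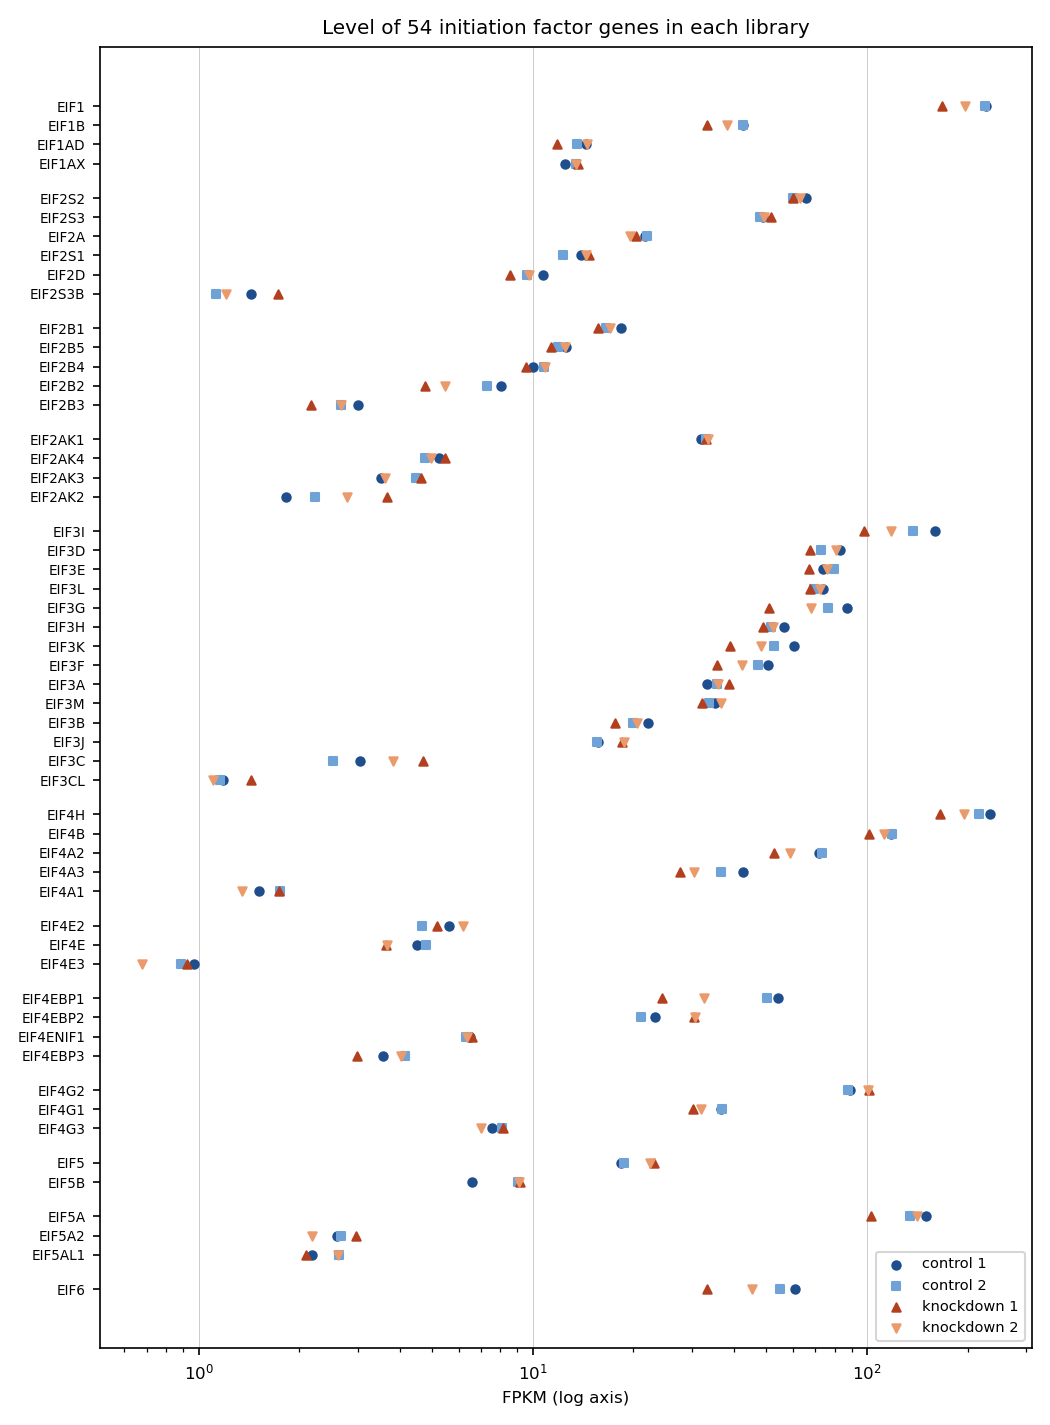
FPKM (log axis) of each of the 54 genes in each control (blue circles and squares) and each knockdown library (red and orange triangles), grouped by factor complex and ordered by mean. Levels run from EIF4E3, below 1 FPKM, to EIF1 and EIF4H, the highest.

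Lower and higher messages were both found among these factors, and the family as a whole lay close to other coding genes. Of the 53 tested genes 35 (66.0%) had a lower knockdown mean and 18 a higher one, with a median log2 fold change of -0.05. Of all 13172 tested genes 54.3% had a lower mean (median -0.03), and of the 10570 coding genes 57.1% (median -0.05). Fold changes are knockdown minus control of log2(FPKM + 1), a scale on which low genes appear to change less than they do. In 17 of the 53 (32.1%) both knockdown libraries lay below both controls, against 34.6% of all tested genes, and in 12 (22.6%) both lay above, against 26.0%. The sign of the median depended on the library totals: quantile normalization gave 0.03 and the sum of recovered reads 0.065. In either case 20 of the 53 were lower, against 49.0% and 39.1% of all tested genes. Under quantile normalization the family was thus lower less often than all genes. Those settings moved the median of all genes from -0.03 to 0.01 and 0.08, so the family lay near that median in each.

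By limma-trend, the main test, 0 of the 53 passed an adjusted p of 0.05, a threshold that 0.205% of all tested genes passed. An unadjusted p under 0.05 was reached by 13 genes (24.5%, against 23.4% of all genes), of which 8 had lower and 5 higher means. Limma-voom on the recovered reads, a second test fitted to all genes, called 6 of the 53. EIF4EBP1, EIF6 and EIF2B2 fell (3 of 53 or 5.66%, against 5.8% of all tested genes), and EIF4EBP2, EIF2AK2 and EIF3C rose (5.66%, against 1.94%). The words rose and fell below refer to this second test. Without knockdown library 1 it called 0 of the 53 (0.774% of all tested genes), and without knockdown library 2 it called 18 (34.0%, against 29.4%), so the number of calls varied over all genes. Without control 1 it called EIF4EBP1 alone (1.89%, against 1.03%), and without control 2 EIF4EBP1 and EIF2AK2 (3.77% of members and of all genes).

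**Figure D2:**
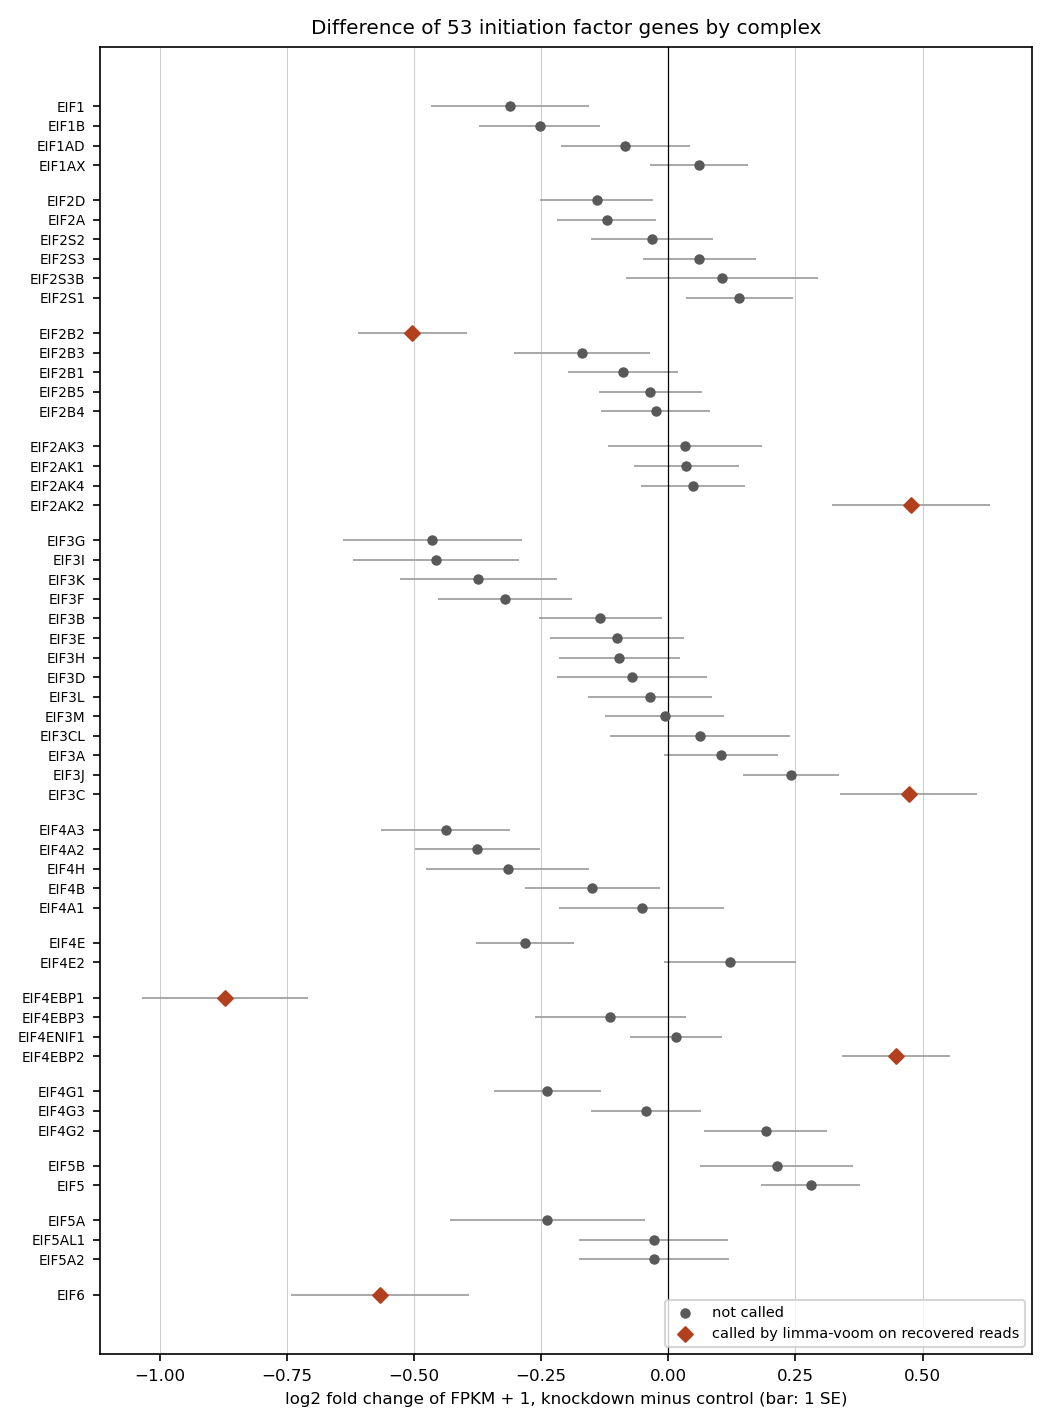
Log2 fold change of FPKM + 1 (knockdown minus control, limma-trend, bars of 1 SE) for the 53 tested genes by complex. Diamonds mark the 6 genes called by limma-voom on recovered reads, from EIF4EBP1 at -0.87 to EIF2AK2 at 0.48.

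Among the 4E-binding proteins, the repressors of the cap-binding factor, 1 gene fell and 1 rose. EIF4EBP1 (chromosome 8, 38030341 to 38060365, plus strand, hg38) encodes 4E-BP1. Controls 1 and 2 held 54.3 and 50.2 FPKM, and knockdown libraries 1 and 2 held 24.3 and 32.4 FPKM. Both knockdown libraries lay well below both controls, and library 1 was the lower of the pair. EIF4EBP1 fell from 52.3 ± 2.87 to 28.4 ± 5.75 FPKM (SD, n = 2 each), to 0.543 of the control mean. Its log2 fold change amounted to -0.87 ± 0.16 (SE; adjusted p 0.107 in limma-trend and 0.0122 in limma-voom). Its limma-voom call ended without knockdown library 1 (adjusted p = 0.0581) and held in the other 3 fits that left out a library.

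EIF4EBP2 (chromosome 10, 70404379 to 70428618, plus strand, hg38), the gene of the related repressor 4E-BP2, went the opposite way. Controls 1 and 2 held 23.2 and 21.1 FPKM, and knockdown libraries 1 and 2 held 30.4 and 30.6 FPKM. The knockdown libraries were nearly equal to each other and above both controls. EIF4EBP2 rose to 1.38 times the control mean (log2 fold change 0.45 ± 0.11, adjusted p 0.13 in limma-trend and 0.0414 in limma-voom). Without any 1 of the libraries the limma-voom adjusted p lay between 0.0187 and 0.362, and it was under 0.05 only without knockdown library 2. In the controls EIF4EBP1 was 2.34 and 2.39 times as high as EIF4EBP2 per kilobase, and in the knockdown libraries 0.799 and 1.06 times. These ratios are taken within a library, so they do not depend on the library total. A difference between libraries that goes with gene length would remain in them. EIF4EBP1 has 1073 and EIF4EBP2 7257 bases of merged exon. After removal of a smooth trend on length their log2 fold changes were -0.72 and 0.42. The part of length in the ratios was not tested further.

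The other 2 genes of this group showed no difference beyond their spread. EIF4EBP3, a short relative of both, had means of 3.85 ± 0.41 and 3.51 ± 0.74 FPKM from 38 to 57 reads a library. It shares 71.8% of its 50-base words with other annotated transcripts, chiefly the read-through gene ANKHD1-EIF4EBP3, so its reads are uncertain. EIF4ENIF1, the transporter that carries eIF4E into the nucleus, had means of 6.39 and 6.46 FPKM. The target of these repressors, EIF4E, the cap-binding protein, measured 4.51 and 4.78 FPKM in the controls, against 3.64 and 3.65 FPKM under knockdown. The 2 groups did not overlap, but neither test called EIF4E (log2 fold change -0.28 ± 0.10, adjusted p 0.176 in limma-trend and 0.0903 in limma-voom). EIF4E2, a cap-binding relative known for repression, overlapped between groups, at 5.63 and 4.66 FPKM for controls and 5.18 and 6.18 FPKM for knockdown.

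**Figure D3:**
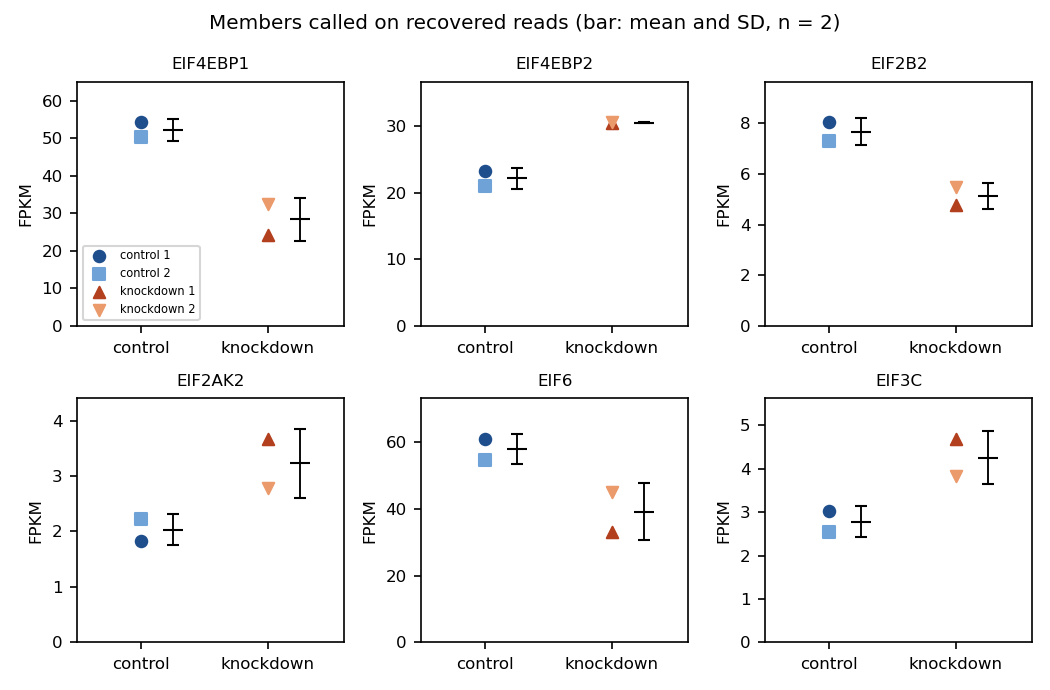
FPKM in each library for the 6 genes called by limma-voom on recovered reads, with the mean and SD (n = 2) beside each group; every axis starts at 0. EIF4EBP1, EIF2B2 and EIF6 are lower and EIF4EBP2, EIF2AK2 and EIF3C higher in both knockdown libraries than in both controls.

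The helicase group had 5 of 5 means lower (median log2 fold change -0.32), with 4 of the 5 lower without overlap between groups (34.6% of all tested genes were), and none called by either test. That median became -0.08 after quantile normalization and -0.18 when totals were the sum of reads. EIF4A2, a helicase paralog of eIF4A1, measured 71.9 and 73.3 FPKM in the controls, against 52.7 and 59.0 FPKM under knockdown (log2 fold change -0.38 ± 0.12, adjusted p 0.167 in limma-trend and 0.0883 in limma-voom). EIF4A3, the helicase of the exon junction complex rather than of initiation, measured 42.5 and 36.7 FPKM in the controls, against 27.6 and 30.3 FPKM under knockdown. It came close to the threshold on recovered reads (log2 fold change -0.44 ± 0.13, adjusted p 0.151 in limma-trend and 0.0517 in limma-voom). EIF4H stood at 233 and 216 FPKM against 166 and 196 FPKM, and EIF4B, the other helicase cofactor, at 118 and 119 FPKM against 101 and 113 FPKM. Quantile normalization reduced the fold change to -0.08 for EIF4A2 and -0.21 for EIF4A3. EIF4H and EIF4B changed sign under quantile normalization (log2 fold changes 0.10 and 0.20).

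EIF4A1, the main helicase of the eIF4F complex in most growing cells, was listed at only 1.51 and 1.75 FPKM in the controls and 1.73 and 1.35 FPKM in the knockdown libraries, from 134 to 170 reads. That left EIF4A2 at 30.4 to 47.5 times EIF4A1 per kilobase within a library. EIF4A1 shares 41.0% of its 50-base words with other annotated transcripts. AC016876.2, a gene on the same strand, holds 33.8% of the words, and the read-through gene SENP3-EIF4A1 24.9%. Both of these were listed below 0.1 FPKM in every library. No source used here says how reads that fit more than 1 gene were counted, and the part of shared reads in this low level was not tested.

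Among the scaffolds the canonical and the alternative gene lay on opposite sides of 0. EIF4G1, the scaffold of the cap-binding complex, measured 36.6 and 36.9 FPKM in the controls, against 30.1 and 32.0 FPKM under knockdown. EIF4G2, also called DAP5, a scaffold that lacks the eIF4E-binding part, measured 88.8 and 88.0 FPKM in the controls, against 101.1 and 101.0 FPKM under knockdown. Neither group pair overlapped, and neither gene was called (limma-voom adjusted p of 0.208 and 0.388). Quantile normalization gave log2 fold changes of -0.006 for EIF4G1 and 0.52 for EIF4G2. Removal of a smooth trend on length and GC content gave -0.19 and 0.06. The ratio of EIF4G2 to EIF4G1 was 2.42 and 2.38 in the controls, against 3.36 and 3.16 under knockdown. EIF4G3, a scaffold paralog of EIF4G1, overlapped between groups, with means of 7.82 and 7.57 FPKM.

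Several of the cap-binding and helicase genes carry the E-box CACGTG, the palindrome bound by MYC and related factors, close upstream of their start. Promoter windows from RefSeq (GRCh38.p14) were matched by symbol for 45 of the 54 genes. In the 250 bases upstream of an annotated start, searched on both strands, CACGTG was present in 12 of the 45 (26.7%). It was present in 7.73% of all 27305 genes with a window and 6.34% of all 35116 windows. Those backgrounds are not limited to tested coding genes. Among tested coding genes with a window, a closer background, 995 held it and 7482 did not, a larger share than 7.73%. Of 3 motifs searched this was the most frequent among the members. The 5 members of the cap-binding, scaffold and helicase groups that hold it are shown with 1 stretch each, 5′ to 3′ on the strand of the gene, because they include the cap-binding protein itself; capitals mark the E-box.
EIF4E (chr4:98929188-98929217, minus strand): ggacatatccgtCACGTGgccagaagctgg
EIF4G1 (chr3:184314450-184314479, plus strand): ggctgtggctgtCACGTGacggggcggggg
EIF4A3 (chr17:80147232-80147261, minus strand): ccagttccctttCACGTGacgaagagtgcc
EIF4B (chr12:53006422-53006451, plus strand): gcccgctataatCACGTGattgcctcatcc
EIF4H (chr7:74174145-74174174, plus strand): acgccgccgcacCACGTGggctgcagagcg

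In EIF4E the E-box shown lies 67 to 72 bases before the start, and a second CACGTG lies 220 to 225 bases before it. The 12 genes with the E-box had 11 lower means and a median log2 fold change of -0.25, and the 32 tested genes without it had 18 lower means and a median of -0.03. EIF2AK2 was the 1 of the 12 with a higher mean. Over all tested coding genes with a window the E-box made little difference: the median was -0.07 for the 995 with it and -0.05 for the 7482 without it. The motif was searched with the values of these genes known, so the split is a description and was not tested. Under quantile normalization the medians of the 12 and the 32 were -0.08 and 0.04. The ETS-type word GGAAGTG, searched in the same way, was present in 9 of the 45 genes (against 11.2% of all genes); all 9 had lower means (median -0.24), 6 of the 9 under quantile normalization, and the medians of coding genes with and without it were -0.06 and -0.05.

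The machinery of the initiator tRNA showed 1 fall and 1 rise. The 3 subunits of eIF2 itself lay close between groups. EIF2S1, the alpha subunit that the stress kinases phosphorylate, measured 14.0 and 12.3 FPKM in the controls, against 14.8 and 14.4 FPKM under knockdown. EIF2S2, the beta subunit and the most abundant, measured 65.8 and 60.2 FPKM in the controls, against 60.1 and 63.0 FPKM under knockdown. EIF2S3, the gamma subunit that binds the tRNA, measured 48.8 and 47.7 FPKM in the controls, against 51.7 and 49.1 FPKM under knockdown. EIF2S2 overlapped between groups, and EIF2S1 and EIF2S3 were slightly higher in both knockdown libraries. None was called, and their log2 fold changes lay between -0.03 and 0.14. EIF2S3B, an expressed copy of EIF2S3 with which it shares 26.8% of its words, was listed at 1.44 and 1.13 FPKM in the controls and 1.72 and 1.21 FPKM with knockdown. EIF2A and EIF2D, factors that can deliver tRNA without eIF2, had log2 fold changes of -0.12 and -0.14. EIF2A measured 21.7 and 21.9 FPKM in the controls, against 20.4 and 19.6 FPKM under knockdown.

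In eIF2B, the exchange factor for eIF2, all 5 means were lower (median log2 fold change -0.09). EIF2B2, the beta subunit of its regulatory core (chromosome 14, 75002911 to 75012366, plus strand, hg38), measured 8.04 and 7.31 FPKM in control libraries 1 and 2, against 4.77 and 5.48 FPKM under knockdown. The groups were clearly apart. EIF2B2 fell to 0.668 of the control mean (log2 fold change -0.50 ± 0.11, adjusted p 0.12 in limma-trend and 0.0324 in limma-voom). The limma-voom adjusted p without any 1 library was 0.0128 to 0.363, and it was under 0.05 only without knockdown library 2. EIF2B2 shares 21.4% of its words with antisense genes, chiefly AL049780.3, and without a stated use of strand the reads of both cannot be told apart. The other 4 subunits, EIF2B1, EIF2B3, EIF2B4 and EIF2B5, had log2 fold changes between -0.17 and -0.02. EIF2B1, the alpha subunit and the most abundant of the 5, measured 18.4 and 16.6 FPKM in the controls, against 15.7 and 17.1 FPKM under knockdown. EIF2B3, the gamma subunit, measured 2.99 and 2.67 FPKM in the controls, against 2.16 and 2.66 FPKM under knockdown. The eIF2B median became 0.03 after quantile normalization and 0.04 when totals were the sum of reads.

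All 4 kinases of eIF2 alpha had higher knockdown means, 3 of them by a log2 fold change of 0.05 or less. EIF2AK2 (chromosome 2, 37099210 to 37157065, minus strand, hg38) encodes PKR, which is activated by double-stranded RNA and induced by interferon. Controls 1 and 2 held 1.83 and 2.23 FPKM, and knockdown libraries 1 and 2 held 3.67 and 2.79 FPKM, from 328, 402, 728 and 614 reads. Both knockdown libraries were above both controls, library 1 more so. EIF2AK2 rose to 1.59 times the control mean (log2 fold change 0.48 ± 0.15, adjusted p 0.165 in limma-trend and 0.0412 in limma-voom), and the limma-voom adjusted p was 0.369 without control 1 and 0.153 without knockdown library 1. EIF2AK1, the heme-regulated kinase and the most abundant of the 4, measured 31.9 and 32.9 FPKM in the controls, against 33.0 and 33.4 FPKM under knockdown. EIF2AK3, the endoplasmic reticulum kinase PERK, and EIF2AK4, the amino acid sensor GCN2, overlapped between groups with log2 fold changes of 0.03 and 0.05. EIF2AK4 changed sign after removal of a smooth trend on length (-0.08) or on length and GC content (-0.07).

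The start of EIF2AK2 carries a pair of GAAA words 2 bases apart, a form of interferon response element, of the kind bound by interferon-activated factors. The stretch is shown because EIF2AK2 was the kinase that rose; it lies on the minus strand, and capitals mark the word, which runs from 6 bases before the RefSeq start into the transcript.
EIF2AK2 (chr2:37156967-37156996, minus strand): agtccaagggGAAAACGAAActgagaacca

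In the whole window of 300 bases, 250 before and 50 after the start, on both strands, this word was present in 5 of the 45 matched genes (11.1%), against 4.38% of all genes. The other 4 were EIF2A, EIF3C, EIF3K and EIF6. Of the 5, EIF2AK2 and EIF3C rose and EIF6 fell, so the word did not go with 1 direction. The median over the 316 tested coding genes with it was 0.01 and over the 8161 without it -0.05.

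The subunits of eIF3 did not share a direction. Of the 14 genes 10 had lower and 4 higher means (median log2 fold change -0.08, range -0.46 to 0.47), and the median became 0.18 after quantile normalization and 0.05 when totals were the sum of reads. EIF3G, an RNA-binding subunit, measured 87.3 and 76.3 FPKM in control libraries 1 and 2, against 51.0 and 67.9 FPKM under knockdown. EIF3I, a propeller-shaped subunit that binds next to it, measured 159 and 137 FPKM in the controls, against 97.9 and 117.9 FPKM under knockdown. Both were lower in each knockdown library without being called (limma-voom adjusted p of 0.0754 and 0.0619), and quantile normalization reduced their log2 fold changes from -0.46 each to -0.16 and -0.09. EIF3K and EIF3F, subunits of the octamer core, also lay lower without overlap, from means of 56.6 to 43.6 FPKM and from 48.9 to 39.0 FPKM (limma-voom adjusted p of 0.104 and 0.146), with log2 fold changes of -0.37 and -0.32 that quantile normalization reduced to -0.12 and -0.07.

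EIF3A, the largest scaffold subunit, lay the other way, at 33.3 and 35.7 FPKM in the controls and 38.6 and 35.8 FPKM in the knockdown libraries (log2 fold change 0.10 ± 0.11). EIF3J, a loosely bound subunit at the decoding centre, measured 15.7 and 15.6 FPKM in the controls, against 18.5 and 18.8 FPKM under knockdown (log2 fold change 0.24 ± 0.09, limma-voom adjusted p of 0.188). Within a library the ratio of EIF3A to EIF3G was 0.382 and 0.467 in the controls, against 0.755 and 0.526 under knockdown. EIF3L shares 44.5% of its words with other genes. The remaining subunits EIF3B, EIF3D, EIF3E, EIF3H, EIF3L and EIF3M overlapped between groups, with log2 fold changes between -0.13 and -0.01 that became 0.02 to 0.26 under quantile normalization.

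EIF3C (chromosome 16, 28688558 to 28735730, plus strand, hg38), another core subunit, was the eIF3 gene called. Controls 1 and 2 held 3.04 and 2.53 FPKM, and knockdown libraries 1 and 2 held 4.69 and 3.83 FPKM. EIF3C rose to 1.53 times the control mean (log2 fold change 0.47 ± 0.14, adjusted p 0.15 in limma-trend and 0.0449 in limma-voom). The limma-voom adjusted p was 0.136, 0.278 and 0.153 without control 1, control 2 and knockdown library 1. Its level lay far below the means of 17.1 to 128 FPKM of the 12 eIF3 genes other than EIF3C and its copy EIF3CL. EIF3CL holds 42.3% of the 50-base words of EIF3C, and EIF3C holds 97.2% of those of EIF3CL. EIF3CL was listed at 1.19 and 1.16 FPKM in the controls and 1.44 and 1.11 FPKM in the knockdown libraries, with overlapping groups. Reads of EIF3C and EIF3CL are therefore uncertain, and the part of shared reads in the rise of EIF3C was not tested.

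Factors of start codon choice and subunit joining were divided. EIF1 measured 227 and 225 FPKM in the controls, against 168 and 197 FPKM under knockdown. Its paralog EIF1B measured 42.6 and 42.7 FPKM in the controls, against 33.3 and 38.0 FPKM under knockdown. Both lay lower without overlap and uncalled (log2 fold change -0.31 ± 0.16 and -0.25 ± 0.12), their ratio stayed between 5.03 and 5.32 in all 4 libraries, and EIF1 changed sign under quantile normalization (0.10). EIF1AX, a partner of EIF1 on the small subunit, measured 12.5 and 13.4 FPKM in the controls, against 13.7 and 13.4 FPKM under knockdown, and EIF1AD, named for an eIF1A-like domain, had means of 14.0 and 13.2 FPKM.

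EIF5, the GTPase activator of eIF2 at the start codon, measured 18.4 and 18.7 FPKM in the controls, against 23.1 and 22.4 FPKM under knockdown. The groups were apart, but neither test called EIF5 (log2 fold change 0.28 ± 0.10, adjusted p 0.178 in limma-trend and 0.127 in limma-voom). EIF5B, the GTPase of subunit joining, measured 6.58 and 9.04 FPKM in the controls, against 9.14 and 9.08 FPKM under knockdown. Control 1 alone was low, and control 2 lay close to the knockdown libraries.

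EIF6, which keeps the large ribosomal subunit from joining too early and is needed for its assembly (chromosome 20, 35278911 to 35284985, minus strand, hg38), stood at 61.1 and 54.8 FPKM in controls 1 and 2. The knockdown libraries 1 and 2 held 33.2 and 45.2 FPKM. EIF6 fell to 0.676 of the control mean (log2 fold change -0.57 ± 0.17, adjusted p 0.156 in limma-trend and 0.0442 in limma-voom). The limma-voom adjusted p without any 1 library was 0.00675 to 0.358, and it was under 0.05 only without knockdown library 2. Quantile normalization reduced the fold change of EIF6 to -0.33. EIF5A overlapped between groups, at 150 and 134 FPKM in the controls and 103 and 141 FPKM in the knockdown libraries, and changed sign under quantile normalization (0.12). Its relatives EIF5A2, at 2.18 to 2.97 FPKM, and EIF5AL1 overlapped too. EIF5AL1 measured 2.19 and 2.64 FPKM in the controls, against 2.09 and 2.61 FPKM under knockdown.

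Fold change went with gene length and with level in the family, as in coding genes at large. Across the 53 genes the Spearman correlation of fold change with merged exon length was 0.345, and across the 10570 tested coding genes it was 0.448. With mean FPKM the correlations were -0.426 and -0.374, so genes of higher level tended to have lower fold changes. The genes share the same 4 libraries. The 27 genes of up to 5434 bases had a median log2 fold change of -0.09 with 21 lower means, and the 26 longer genes -0.02 with 14 lower means. EIF4EBP1, with 1073 bases of merged exon, and EIF6, with 1631, are among the shortest, and EIF4EBP2 and EIF2AK2, with 7257 and 10753 bases, among the longer ones. After removal of a smooth trend on length and GC content the fold changes were -0.65 for EIF4EBP1, -0.28 for EIF6, -0.48 for EIF2B2, 0.39 for EIF4EBP2, 0.29 for EIF2AK2 and 0.46 for EIF3C. EIF6 and EIF2AK2 thus moved by over 1.5 times, and all 6 kept their direction. The part of length or level in these differences was not tested further.

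**Figure D4:**
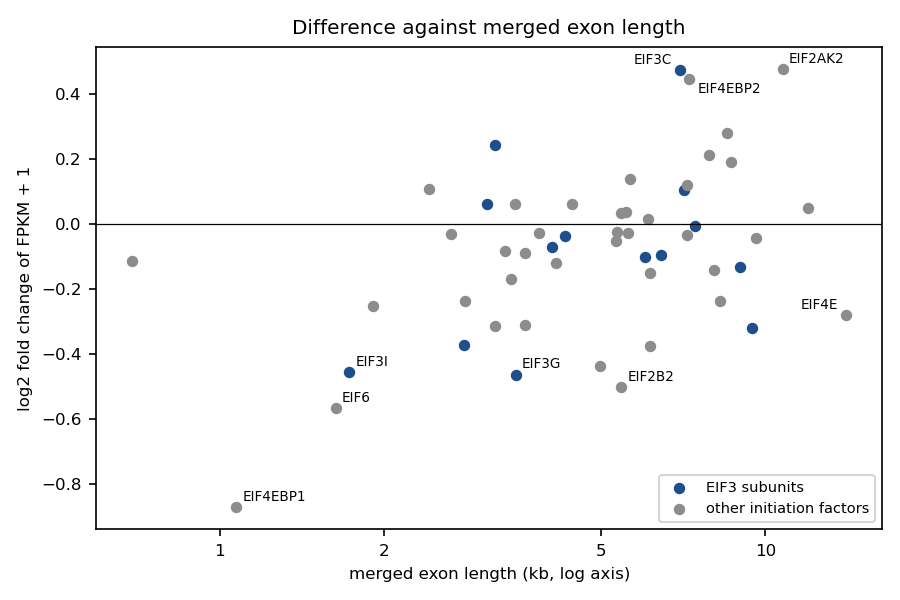
Log2 fold change of FPKM + 1 against merged exon length (kb, log axis) for the 53 tested genes, with eIF3 subunits in blue. The shortest called genes, EIF4EBP1 and EIF6, lie lowest, and the long genes EIF2AK2, EIF4EBP2 and EIF3C highest.

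The knockdown libraries differed from each other in distance from the controls. Knockdown library 1 lay farther from the control mean than library 2 for 45 of the 53 genes. This held for 16 of the 17 genes that were lower without overlap and for 9 of the 12 that were higher. The share over all genes was not counted, so whether these counts are particular to the family was not tested. FYB1 measured 6.18 FPKM in library 1 and 4.53 FPKM in library 2, and its part in these distances was not tested. The authors' totals lay above the recovered reads in knockdown libraries 1 and 2 (18436617 against 16693113 and 20480491 against 20251864). In controls 1 and 2 they lay below them (16648943 against 17597678 and 16789004 against 17216663). The part of these totals in the distances was not tested. Against the control means the median log2 difference of the family was -0.11 in library 1 and -0.03 in library 2, and that of all coding genes -0.08 and -0.03. The T cell markers went the same way, with medians of -0.31 and -0.09; the part of this shared difference in the results on initiation factors was not tested.

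Other genes of translation were read from 3 lists. None of their members was called by limma-trend, and an unadjusted p under 0.05 was reached by 8 of the genes that control eIF4E, eIF4A and eIF2 (34.8%), 1 of the helpers (5.88%) and 1 of the elongation genes (9.09%), against 23.4% of all tested genes. Among 23 tested genes that control eIF4E, eIF4A and eIF2, 16 had lower and 7 higher means (median -0.08), and limma-voom called 2, both lower (8.70%, against 5.8% of all tested genes). MLST8, a subunit of the mTOR complexes, fell from 23.4 and 22.0 FPKM to 13.9 and 16.2 FPKM (log2 fold change -0.56 ± 0.12, limma-voom adjusted p of 0.0268), and RHEB, the GTPase that activates mTOR complex 1, from 32.0 and 30.2 FPKM to 19.9 and 22.8 FPKM (-0.53 ± 0.12, limma-voom adjusted p of 0.0303). Without any 1 library the limma-voom adjusted p of MLST8 was 0.00691 to 0.293 and that of RHEB 0.00775 to 0.357, under 0.05 only without knockdown library 2. MTOR itself was close between groups, at 7.41 and 7.91 FPKM in the controls and 8.48 and 7.95 FPKM in the knockdown libraries.

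Of the 17 genes of initiation helpers and ribosome recycling 11 had lower means (median -0.04) and 0 were called by limma-voom (against 5.8% of all tested genes lower and 1.94% higher). Their largest fold changes were those of DOHH, the enzyme that completes hypusine on eIF5A (-0.49 ± 0.16), CDC123, an assembly factor of eIF2 (-0.26 ± 0.11), and NCBP1, a subunit of the nuclear cap-binding complex (0.25 ± 0.12). Of the 11 tested genes of elongation and termination 10 had lower means (median -0.18, and -0.04 under quantile normalization), and EEF1D, a subunit of the exchange factor of eEF1A, was the 1 called (9.09%, against 5.8% called lower). It fell from 15.9 and 14.1 FPKM to 9.77 and 11.1 FPKM (log2 fold change -0.49 ± 0.12, limma-voom adjusted p of 0.0339). Without any 1 library that value was 0.011 to 0.462, again under 0.05 only without knockdown library 2.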

How the data were processed

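Per the labels' protocols, RNA was extracted with Trizol and sequenced from TruSeq libraries. The tool and build named in the submitters' processing notes are HISAT2 2.0.5 and hg38. The deposited values are FPKM made by the authors, 1 per gene and library, although no header names the unit. This was read from the values: multiplied by merged exon length (GENCODE 29) and a total per library, 100% of those above 0 came out whole (tolerance 0.001), which also gave the recovered reads. No source used here names the counting program or says whether strand was used.

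Limma-trend (limma 3.58.1, R 4.3.3) on log2(FPKM + 1) served as main test, over the 13172 genes whose mean reached 1 FPKM, with the group as the single term and Benjamini-Hochberg adjustment over all of them at 0.05. Limma-voom used the recovered reads with the authors' library totals and called 764 genes lower and 255 higher. A family or complex is described by counts and medians without a test. Shared sequence was measured as the share of a gene's distinct 50-base words found in transcripts of other genes on either strand. Motifs were searched in RefSeq promoter windows.

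Values in every library are given for members called by either test, for the most abundant gene and up to 2 non-overlapping genes with the largest change per complex, and for fixed paralog pairs. From the 3 other translation lists they are given for called genes. Where a list had no called gene, the 3 largest fold changes are given. EIF4B, EIF3A, EIF3J, EIF3K, EIF3F and MTOR are named beyond that rule, after their values were seen. The members and lists were chosen with earlier results of these data known.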

Additional observations from a re-analysis of the deposited data

How the results depend on the processing

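Limma-trend called 0 of the 53 genes, also under quantile normalization, the sum of reads as total, pseudocounts of 0.1 and 5, every gene above 0 and removal of the length trend. In that order these settings called 0.342%, 0.583%, 0.152%, 0.213%, 0% and 0.873% of all genes. With so few calls anywhere, the 0 says little about the members. It called 1 when the minimum mean was 5 FPKM (2.38%, against 2.34% of all genes). After the added length and GC correction it also called 1 (1.89%, against 2.63%), in both cases EIF4EBP1. Limma-voom called 6, and 0 to 18 without any 1 library (0.774% to 29.4% of all genes), 2 with the sum of reads as total (3.77%, against 3.50%). With the replicate number as a block limma-trend called 2 (EIF4EBP1 and EIF2B2; 3.77%, against 5.93% of all genes) and limma-voom 5 (9.43%, against 8.14%); the libraries share only a number (correlation of deviations -0.207). A crossed replicate block, added after the data were seen, called 8, 6 lower and 2 higher (15.1%, against 14.5% of all genes).

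The median log2 fold change of the initiation factor genes was -0.052, 0.032 under quantile normalization, 0.065 with the sum of reads as total in either test, and -0.111 to -0.032 by limma-trend and -0.122 to -0.033 by limma-voom without any 1 library. The number with lower means was 35, then 20 under quantile normalization and 20 and 19 with the sum of reads, and 31 to 33 without any 1 library by limma-trend. It was 28 of 42 without the 11 genes that share at least 20% of their words.

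All 6 genes called on recovered reads kept their direction in every fit. Of 664 values for the 32 named genes under other settings 41 changed sign. Under quantile normalization these were EIF1 0.101, EIF2A 0.039, EIF2B1 0.027, EIF2S2 0.264, EIF3CL -0.027, EIF4H 0.099 and EIF5A 0.121. With the sum of reads they were EIF2A 0.011 and 0.009, EIF2B1 0.040 and 0.043, EIF2S2 0.103 and 0.105, EIF4A1 0.034 and 0.033, and EIF5AL1 0.067 and 0.103 (limma-trend, limma-voom). With the length trend removed they were EIF2B1 0.029, EIF2S2 0.147 and EIF5AL1 0.081, and with length and GC EIF2S2 0.097, EIF4A1 0.016, EIF5A 0.004 and EIF5AL1 0.048. Without any 1 library 5 genes changed sign. Their limma-trend values ran from -0.096 to 0.031 for EIF2S2, -0.045 to 0.257 for EIF2S3B, -0.044 to 0.168 for EIF3CL, -0.161 to 0.057 for EIF4A1 and -0.140 to 0.083 for EIF5AL1. By limma-voom they ran from -0.098 to 0.031, -0.078 to 0.431, -0.084 to 0.295, -0.269 to 0.091 and -0.201 to 0.116, with EIF2S2 at 0.002 without knockdown library 1, and EIF2S3B at -0.006, EIF4A1 at 0.009 and EIF5AL1 at 0.096 without control 2. The cause was not tested. Depth limits EIF4EBP3, EIF2S3B and EIF3CL most, with 38 to 82 reads a library.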
